A study of Mus musculus with 46 samples.

Results

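Short DNA fragments from the Klf2 locus on mouse chromosome 8 were assayed as pairs, with a candidate cis-regulatory element (cCRE) placed upstream of a promoter fragment in front of a barcoded reporter. The constructs described are those that join a Klf2-locus cCRE to a Klf2-locus promoter, in that order, and whose activity was above 0 in each of 3 biological replicates. This held for 3685 of the 3758 listed constructs of this kind, out of 91657 constructs in the whole series. The 73 left out (1.94%) had a replicate at 0. The study is a set of massively parallel reporter assays (MPRAs), in which many plasmids are transfected together and each is read out through its own barcode. The constructs were measured in E14TG2a cells, a line of mouse embryonic stem cells kept in 2i+LIF medium. Libraries of the Klf2 locus, the Nanog locus and negative controls were nucleofected as a single mix, and RNA was collected after 24 h. All values therefore come from a single group of 3 complementary DNA (cDNA) samples with no further treatment or genotype, and every comparison is between constructs within these samples. The reporters were carried on plasmids, so the fragments were measured outside their place in the chromosome.

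The constructs hold 82 cCREs and 23 promoter fragments between positions 71885062 and 72761954 of chromosome 8 (mm10), and in each fragment the start and end lie 450 bp apart. Both fragments were present in either orientation, which gave 144 oriented cCREs and 46 oriented promoters, and 48.8% of the 7544 possible oriented combinations were measured. A cCRE was measured with 1 to 23 promoter fragments, at a median of 21, and 3 cCREs were measured with fewer than 3. A construct is named here by cCRE and then promoter, each followed by its orientation as the deposited table gives it, so that E007+ P002+ is cCRE E007 and promoter P002, both in plus orientation. The sources used here do not state whether plus means the genome strand or the direction of the gene. Gene positions were taken from RefSeq, and exons and introns were not annotated here.

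Promoters hold the start site from which a gene is transcribed, and enhancers are stretches of DNA, often far from any start site, that bind transcription factors and raise the output of a promoter. In an MPRA an enhancer is read as a gain in reporter RNA over the same promoter alone. Klf2 encodes a zinc finger transcription factor of the network that keeps mouse embryonic stem cells in their naive pluripotent state. Its neighbours on chromosome 8 include broadly used genes, such as those for the Mediator subunit Med26, the small GTPase Rab8a and the clathrin adaptor subunit Ap1m1, and genes used in few tissues, such as those for the olfactory receptor Olfr374 and the fatty acid hydroxylase Cyp4f18.

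A RefSeq promoter window (GRCm38.p6) lay wholly within 15 of the 23 promoter fragments and within 2 of the cCREs, E007 and E030. The windows given here are the 250 bases before the annotated start, written 5′ to 3′ along the gene. They are those of the cCRE with the highest effect, the lowest cCRE measured with at least 3 promoters and the Klf2 promoter. The others are a pair of promoters that were strong alone and a pair of low ones, P007 and P004. Of these, P007 was below the median activity of promoters alone in plus orientation only. Capitals mark matches, on either strand, to any of 12 short motifs.
E007, Zfp617, chr8:71922575-71922824, plus strand: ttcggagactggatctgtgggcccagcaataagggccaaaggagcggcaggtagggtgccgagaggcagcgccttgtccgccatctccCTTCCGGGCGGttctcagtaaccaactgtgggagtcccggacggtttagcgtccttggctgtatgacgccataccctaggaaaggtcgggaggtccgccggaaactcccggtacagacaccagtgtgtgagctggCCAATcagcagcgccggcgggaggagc
E030, Gm39196, chr8:72125925-72126174, minus strand: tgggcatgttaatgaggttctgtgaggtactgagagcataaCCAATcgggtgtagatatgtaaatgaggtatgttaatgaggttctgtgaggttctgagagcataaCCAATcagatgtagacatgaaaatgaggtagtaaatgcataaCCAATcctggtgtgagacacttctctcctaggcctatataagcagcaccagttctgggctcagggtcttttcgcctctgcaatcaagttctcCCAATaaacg
P016, Klf2, chr8:72318812-72319061, plus strand: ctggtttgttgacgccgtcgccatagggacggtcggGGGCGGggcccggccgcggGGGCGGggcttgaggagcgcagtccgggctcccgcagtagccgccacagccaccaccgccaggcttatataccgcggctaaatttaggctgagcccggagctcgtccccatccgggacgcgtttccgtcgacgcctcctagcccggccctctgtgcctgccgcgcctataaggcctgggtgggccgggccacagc
P017, Eps15l1, chr8:72421475-72421724, minus strand: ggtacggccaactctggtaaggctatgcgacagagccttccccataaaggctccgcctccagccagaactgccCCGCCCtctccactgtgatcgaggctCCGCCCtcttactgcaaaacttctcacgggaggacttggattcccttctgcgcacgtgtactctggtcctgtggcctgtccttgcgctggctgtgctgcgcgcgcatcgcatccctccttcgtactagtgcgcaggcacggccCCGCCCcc
P003, Zfp961, chr8:71950816-71951065, plus strand: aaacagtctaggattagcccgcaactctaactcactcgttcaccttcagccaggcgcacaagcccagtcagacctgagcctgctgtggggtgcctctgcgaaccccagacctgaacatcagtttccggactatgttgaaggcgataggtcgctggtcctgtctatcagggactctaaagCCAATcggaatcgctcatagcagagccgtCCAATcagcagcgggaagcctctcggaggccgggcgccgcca
P007, Olfr374, chr8:72106790-72107039, plus strand: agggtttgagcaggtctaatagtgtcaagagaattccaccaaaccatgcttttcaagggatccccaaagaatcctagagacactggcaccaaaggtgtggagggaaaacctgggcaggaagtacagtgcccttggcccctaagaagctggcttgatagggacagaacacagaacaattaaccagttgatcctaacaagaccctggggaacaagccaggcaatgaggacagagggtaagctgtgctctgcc
P004, Cyp4f18, chr8:72009627-72009876, minus strand: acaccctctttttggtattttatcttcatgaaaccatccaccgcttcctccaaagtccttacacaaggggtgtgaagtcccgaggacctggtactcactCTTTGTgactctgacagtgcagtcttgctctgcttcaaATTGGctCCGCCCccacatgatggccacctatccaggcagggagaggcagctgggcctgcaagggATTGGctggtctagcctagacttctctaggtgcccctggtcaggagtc
The motifs searched were ATGCAAAT (OCT factors), TCAAGGTCA (ESRRB), ACAAAG (SOX), GGGTGTGG (KLF), GGGCGG (SP), CCAAT (NFY), CCGGAAG (ETS), AAGATGGC (YY1), TTCCNGGAA (STAT), TGANTCA (AP1), TGACGTCA (CRE) and TATAAA (the box bound by TBP). The window in E007 held a match to the ETS motif that overlapped a match to the SP motif, and a single CCAAT. The window in E030 held 4 CCAAT matches and no other. The Klf2 window held 2 matches to the SP motif and that of Eps15l1 held 3, whereas that of Olfr374 held none of the 12. Over all 32851 RefSeq windows of this length, 32.7% held the SP motif, 33.8% CCAAT and 6.91% the ETS motif. The windows of the Klf2-locus fragments had a median GC content of 55.2% and 11 CpG dinucleotides, against 52.4% and 6 over all windows. The Klf2 window had the highest GC content of the 17, at 71.2% with 29 CpG, and the Olfr374 window held 0 CpG. These matches are a description of the letters and were not tested.

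Replicates were compared first, because each construct was set against its promoter within the same cDNA sample. Over the 3685 constructs the log2 activities of replicates correlated with a Pearson's r of 0.95 to 0.96. For the difference from the promoter alone it was 0.42 between replicates 1 and 2, 0.58 between 1 and 3 and 0.65 between 2 and 3. Constructs share fragments and are not independent points. The SD of that difference over constructs was 0.99, 1.15 and 0.62 in replicates 1, 2 and 3. The vector without a fragment had an activity of 0.122, 0.0700 and 0.240 in the same replicates, so that the floor was highest in replicate 3. Barcode and read numbers per construct are not given in the sources used here, and the depth behind each value is unknown. The replicates received the same plasmid pool, so their spread does not cover plasmid-to-plasmid variation within a construct.

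Promoter fragments alone spanned a wide range. Activity is the authors' ratio of cDNA to plasmid barcodes, and 32 of the 46 oriented promoters lay above the empty vector in all 3 replicates. The strongest was P022+, at the start of Smim7 and close to Tmem38a, with 19.8, 19.4 and 16.6 in replicates 1, 2 and 3. P017+ at Eps15l1, the gene of an endocytic adaptor, had 15.0, 15.0 and 12.2, and P003+ at the zinc finger gene Zfp961 had 9.63, 9.38 and 7.63. P021+ at Med26 had 8.09, 8.53 and 7.20. These 4 did not overlap in their replicate values except P003+ and P021+. P014 at Ap1m1 was alike in both orientations, with 6.53, 6.51 and 5.51 in plus and 6.03, 6.52 and 5.30 in minus. The Klf2 promoter P016+ was in the middle of the range, with 1.37, 1.20 and 1.49. At the low end, P005 near the olfactory receptor gene Olfr372 was below the empty vector in every replicate in both orientations, with 0.0986, 0.0402 and 0.216 in plus. P007+ at Olfr374, P011+ at Cib3, P010- at Hsh2d, P024+ at Nwd1, P012- near Cib3 and P004- at Cyp4f18 were also below it in all 3 replicates. The other 15 oriented promoters below the median had log2 means from −3.71 to −2.09. They include both orientations of P008 near the tropomyosin gene Tpm4, of P023 within Tmem38a, of P002 within Zfp882 and of P026 within the thrombin receptor gene F2rl3, and P025- at the corepressor gene Sin3b and P016- at Klf2. P026 was measured in 3 and 5 constructs by orientation and entered no test per promoter. In the following, oriented promoters above the median of −1.84 (log2 activity alone) are called strong and those below it weak. Weak promoters alone lay at −0.77 to 0.89 from the empty vector on the log2 scale, which leaves little room to see a fall below them.

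The average cCRE construct lay below its promoter alone for the strong promoters and near it for the weak ones. Averaged over all cCREs measured with a promoter, the shift passed an adjusted p of 0.05 (limma, Benjamini-Hochberg) for 19 of 44 oriented promoters with at least 10 constructs. Of these 17 were lower and 2 higher, where over all Klf2 and Nanog promoters in the fit 26.1% were called lower and 23.2% higher. The 17 that were lower were all among the 23 strong promoters, whose shifts had a median of −0.27 and ran from −1.06 to 0.027. The largest falls that passed were those of Zfp882, a zinc finger gene, with P001- at −0.68 (−0.72, −0.88 and −0.45 in replicates 1, 2 and 3, SE 0.10, adjusted p = 0.0172) and P001+ at −0.59 (−0.66, −0.61 and −0.51, SE 0.050, adjusted p = 0.0103). P022+ fell by 0.51 (SD 0.041, n = 3), so its constructs averaged 0.704 times the promoter alone, and P017- fell by 0.49 (SD 0.067, n = 3). P018, shared by Calr3 and 1700030K09Rik, fell by 0.42 in minus and by 0.27 in plus. P019, at the calcium homeostasis gene Cherp, fell by 0.36 in minus and by 0.20 in plus, and P009, at Rab8a, fell by 0.30 and by 0.23 in minus and plus. P003- at Zfp961 was the strong promoter with a shift above 0, at 0.027 (SD 0.017, adjusted p = 0.585). Among the 21 weak promoters the median shift was 0.049, and P010- at the haematopoietic adaptor gene Hsh2d, at 0.22 (SE 0.047, adjusted p = 0.0352), and P002+ within Zfp882, at 0.25 (SE 0.063, adjusted p = 0.0470), passed as higher. With the median over cCREs in place of the mean, P002+ turned to −0.067 and neither passed (17 lower, 0 higher). With the replicates scaled to a common spread 10 passed, all lower. Without activities below 0.1, 26 of 40 passed, 18 lower and 8 higher. That minimum also drops constructs by their own activity, which removes low constructs of weak promoters and can raise their shift. Without replicate 2, 18 passed, and without replicate 1 or replicate 3, 0 passed (12 and 13 at an unadjusted p under 0.05).

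The values alone of a pair of oriented promoters are given beside their shifts. P012+ near Cib3 had 1.12, 0.0133 and 0.244 alone in replicates 1, 2 and 3, and its shift of −0.55 was −3.43, 1.81 and −0.029 (SE 1.20). None of its 74 constructs passed. P007- at Olfr374 had 0.320, 0.276 and 0.416 alone, above the empty vector throughout, while its 93 constructs averaged a shift of −1.06 (−0.97, −1.72 and −0.51, adjusted p = 0.0522). Of those, 9 were called lower, and without P012+ in the fit the shift of P007- passed (adjusted p = 0.0448).

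Construct by construct, far more lay below their promoter than above it. Of the 3685 constructs, 71.8% had a mean difference below 0, 1823 (49.5%) were below their promoter in all 3 replicates and 636 (17.3%) were above it in all 3. The median difference was −0.28, against −0.24 over all Klf2 and Nanog constructs in the fit. At an adjusted p of 0.05, 194 were called higher and 571 lower (1564 of either direction at an unadjusted p under 0.05), and over all constructs in the fit 8.16% were called higher and 12.4% lower. Constructs called higher had a median difference of 1.32 and those called lower −0.82. Lower calls were spread over 72 of the 82 cCREs, and higher calls over 23. Strong promoters held 560 of the 571 lower calls, 26.4% of their 2122 constructs, and weak promoters held 11, or 0.704% of 1563. Higher calls made up 5.09% of the constructs with strong and 5.50% of those with weak promoters. The median SE of a difference was 0.10 with strong and 0.27 with weak promoters. Weak promoters also lay near the empty vector, so the lower calls of the classes cannot be compared directly.

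These counts depend on how the promoter value and the replicates enter. Without the replicate block, that is with construct and promoter as separate groups of 3, 126 were called higher and 312 lower. With each replicate scaled to the same spread 258 passed, of which 139 were higher and 119 lower. Against the median construct of the same promoter in place of the promoter alone 335 passed, of which 218 were higher and 117 lower. Higher calls were thus 25.4% of all calls against the promoter alone, 53.9% with scaled replicates and 65.1% against the median construct. With any 1 replicate left out, 0 passed, with 816, 1104 and 1071 at an unadjusted p under 0.05 without replicates 1, 2 and 3.

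The largest gains came from a small number of cCREs. E007, E097 and E011 together gave 96 of the 194 higher calls (49.5%), from 131 constructs, and none of their constructs was called lower. Over all Klf2 constructs, 194 of 3685 were called higher. These 3 cCREs were singled out by the same differences that make the calls, so their share is a description only. To compare cCREs, the mean difference of all constructs with the same oriented promoter was subtracted in each replicate, which removes the promoter-alone value, and the result was averaged over the promoters of a cCRE. By this promoter-centred effect 35 of the 79 cCREs with at least 3 promoters passed, 13 higher and 22 lower, where over all Klf2 and Nanog cCREs in the fit 14.1% were called higher and 41% lower. The median effect of the 79 was −0.12, against −0.26 over all. Without replicate 1, 3 passed, namely E007, E097 and E011. Without replicate 2, 17 passed, and without replicate 3, 32. With the median over constructs in place of the mean 20 passed, 11 higher and 9 lower. E001, E022 and E103, with 1, 2 and 1 constructs, were not tested, and all 4 constructs were called lower.

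E007 (chromosome 8, 71922525 to 71922975), which spans the start of the zinc finger gene Zfp617, had the highest effect at 2.41 (2.41, 2.90 and 1.93 in replicates 1, 2 and 3, SE 0.21, adjusted p = 0.0126). Of its 57 constructs 49 were called higher, and all 57 had a centred effect above 0. E097 (72676845 to 72677295, within Nwd1, a gene of the NACHT and WD repeat family) followed at 1.74 (1.89, 2.06 and 1.26, SE 0.18, adjusted p = 0.0126), with 36 of 53 constructs called higher. E011 (71952937 to 71953387, within Zfp961) had 1.34 (1.36, 1.59 and 1.08, SE 0.12, adjusted p = 0.0126), with 11 of 21 called higher. In all 3 cCREs the value was lowest in replicate 3. The ranges of E007 and E097 overlapped between replicates, as did those of E097 and E011.

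The next 5 had smaller effects. E082 near Med26 (72555765 to 72556215) had 0.85 (SD 0.28, n = 3), E083 near Smim7 (72561112 to 72561562) 0.67 (SD 0.29), E046 near Gm51537 (72271221 to 72271671) 0.62 (SD 0.26), E057 near Klf2 (72311070 to 72311520) 0.57 (SD 0.17) and E006 near Zfp882 (71900631 to 71901081) 0.52 (SD 0.14). All 5 passed (adjusted p 0.0159 to 0.0202) and their ranges over replicates overlapped, except those of E082 and E006. E083 gave 13 higher and 2 lower calls among 83 constructs, E057 gave 12 higher and 2 lower among 56, and E006 10 higher and 1 lower among 47. The 8 highest cCREs together held 139 of the 194 higher calls, from 395 of the 3685 constructs. They were ranked on the same differences that make the calls, so this share is a description only. E008 (71922906 to 71923356), which overlaps E007 by its first bases but does not hold the Zfp617 window, had 0.46 (SD 0.14, n = 3, adjusted p = 0.0202), with 9 higher and no lower calls among 89 constructs.

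The 3 cCREs with the highest effects were also active without a promoter fragment. E007+ alone had an activity of 9.07, 9.31 and 7.57 in replicates 1, 2 and 3, and only P022+, P017+ and P003+ had a higher mean log2 activity among the promoters. E007- alone had 1.79, 1.81 and 1.72. E011+ alone had 3.27, 3.02 and 3.17, and E097+ alone had 2.31, 1.93 and 2.04. The minus orientations were lower, at 1.67, 1.65 and 1.79 for E011- and 1.31, 0.906 and 0.993 for E097-. Over the 131 oriented cCREs measured with at least 3 promoters Pearson's r between log2 activity alone and effect was 0.88, and 0.74 over the 125 that remain without these 3 cCREs. The points share the cDNA samples. Of these, all 10 with a log2 activity alone above −1 had an effect above 0. They do not include E030-, which was measured with a single promoter and so left out here. It had 0.805, 0.415 and 0.753 alone (log2 mean −0.66), and its construct E030- P017+ was called lower, with a difference of −1.33.

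The effect of the same cCREs downstream of the reporter was set beside these values. That assay used another library mix, other cDNA samples and up to 10 of the promoters, and its effects were centred in the same way. E007 had 0.97 (SD 0.029, n = 3) downstream, E097 0.54 (SD 0.033), E011 0.42 (SD 0.060), E046 0.63 (SD 0.051) and E006 0.80 (SD 0.035). E082 and E057 had 0.072 (SD 0.017) and 0.0067 (SD 0.017), and E083 had −0.32 (SD 0.071), below 0 where its upstream effect was above it. Over the 76 cCREs with both values r was 0.63, and the SD over cCREs was 0.37 downstream and 0.51 upstream.

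On the log2 scale, E007, E097 and E011 differed more from the promoter alone with weak than with strong promoters. These are ratios to a promoter value that was low for weak promoters, and do not measure the amount of activity gained. The constructs of E007 with weak promoters differed from the promoter alone by a median of 3.18 (24 constructs, 1.70 to 5.55), and those with strong promoters by 1.47 (33 constructs, 0.33 to 3.17). The medians of E097 were 2.36 over 23 and 0.82 over 30 constructs, and those of E011 3.16 over 3 and 0.70 over 18. Against the sum of the activities of both fragments alone, E007 constructs with weak promoters lay at a median of −2.63 and those with strong promoters at −0.099. Against that sum, E097 constructs had a median of −0.79 with weak and 0.14 with strong promoters. For all other cCREs the difference from the promoter alone had a median of −0.17 with weak and −0.39 with strong promoters.

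The difference between promoter classes was tested on the promoter-centred effect, which does not hold the promoter-alone value. It passed for 5 of the 70 cCREs measured with at least 2 oriented promoters of each class (22 at an unadjusted p under 0.05), and over all cCREs in the fit 9.03% were called. Of the 5, 4 were higher with weak promoters. E011 had 3.01 with weak (2.96, 3.90 and 2.18 in replicates 1, 2 and 3) and 1.06 with strong promoters (1.09, 1.20 and 0.90), a difference of 1.95 (SE 0.27, adjusted p = 0.0187), on 3 weak promoters. E007 had 3.25 with 22 weak and 1.80 with 23 strong promoters, a difference of 1.45 (SE 0.27, adjusted p = 0.0274). E097 had 2.41 and 1.22, a difference of 1.19 (SE 0.24, adjusted p = 0.0332). In all 3 the replicate values of the classes did not overlap. The fourth was E030, at −0.33 with weak and −1.26 with strong promoters, which was therefore less negative with weak ones. Since weak promoters alone lay near the empty vector, a fall could hardly be seen with them, and the part of this floor was not tested. E071, within Gm46043, went the other way, at −0.97 with 6 weak and 0.0012 with 9 strong promoters (difference −0.97, SE 0.20, adjusted p = 0.0332). With medians over constructs neither E071 (−0.90, adjusted p = 0.0659) nor E097 (1.23, adjusted p = 0.0557) passed. The next lowest, E034 within Tpm4 (−0.96, adjusted p = 0.0981) and E079 within Med26 (−0.64, adjusted p = 0.0618), did not pass. The floor of the assay moves with these differences, since it was highest in replicate 3, where the values with weak promoters were lowest for all of E007, E097 and E011, and its part was not tested. Without replicate 3, 0 passed, and without replicates 1 and 2, 5 and 6 passed. With scaled replicates 11 passed, 7 higher and 4 lower with weak promoters. Split at an activity of 1 in place of the median, 15 passed, 7 higher and 8 lower with weak promoters.

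Of single constructs called, the highest difference was that of E007+ P002+. It had an activity of 7.76, 8.91 and 6.67 in replicates 1, 2 and 3, where P002+ alone had 0.145, 0.109 and 0.282, a difference of 5.55 (SE 0.42, adjusted p = 0.0314) or 46.9-fold. All replicates of the construct lay above all replicates of the promoter, and its activity was 0.19 below the sum of both fragments alone on the log2 scale, so that it came close to that of E007+ alone. P002 lies within Zfp882 next to P001, which holds the start of that gene. E007+ P002- differed from its promoter by 4.60 and E007+ P023+ by 4.54, where P023 lies within the intracellular cation channel gene Tmem38a. E097+ P002- reached 4.59, 4.18 and 3.71 against 0.185, 0.188 and 0.320 for the promoter, a difference of 4.21, and exceeded the sum of its fragments alone by 0.84. E097- P023+ differed by 3.91 and exceeded that sum by 1.43. E007- P002+ and E007+ P024- differed by 4.07 and 4.00.

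E004- P002+ stood apart from the other constructs of its cCRE. E004 lies near Zfp709 (chromosome 8, 71896893 to 71897343). The construct had an activity of 2.56, 3.00 and 2.51 against 0.145, 0.109 and 0.282 for P002+ alone, a difference of 4.02 (SE 0.38, adjusted p = 0.0314), and exceeded the sum of both fragments alone by 2.02. E004- alone had 0.469, 0.434 and 0.586. With P002 in the other orientation, E004- P002- had 0.229, 0.144 and 0.399, close to P002- alone, and E004+ P002+ had 0.125, 0.0907 and 0.272. Over the 27 constructs of E004 in minus orientation the median difference was −0.20, with 1 called higher and 2 lower. The P002 fragment held 30 of the higher calls, from 16 cCREs. They were 13 of 108 constructs with P002+ and 17 of 105 with P002-, where 194 of all 3685 constructs were called higher. Over all 194 constructs called higher, 104 exceeded the sum of both fragments alone and 140 exceeded the higher of the pair. These 194 were picked for high values, so the counts do not describe constructs in general. For all cCREs other than E007, E097 and E011, constructs lay at a median of −1.18 with weak and −0.49 with strong promoters against that sum.

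E030 with strong promoters gave most of the 8 lowest called constructs. This cCRE (chromosome 8, 72125819 to 72126269) spans the start of the predicted gene Gm39196. Among cCREs measured with at least 3 promoter fragments it had the lowest effect, at −0.84 (−0.77, −1.07 and −0.67 in replicates 1, 2 and 3, SE 0.11, adjusted p = 0.0154). Of its 44 constructs 43 held it in plus orientation. With strong promoters it differed from the promoter alone by a median of −1.47 and was called lower in 21 of 24 constructs. With weak promoters, which alone lay near the empty vector and left little room for a fall, it differed by −0.21, with 0 of 20 called. E030+ alone had an activity of 0.292, 0.205 and 0.372, above the empty vector in each replicate, and E030- alone was higher still. Of the 8 lowest constructs that were called, 5 joined E030+ to a strong promoter. E030+ P021-, with Med26, had 1.18, 1.16 and 1.16 where the promoter alone had 6.88, 7.42 and 6.14, a difference of −2.54 (SE 0.11, adjusted p = 0.0314). E030+ P017- had 0.426, 0.281 and 0.455 against 2.20, 2.21 and 2.13, a difference of −2.52, and E030+ P022+ had 5.09, 4.49 and 3.34 against 19.8, 19.4 and 16.6, a difference of −2.13. In each of these the construct lay below the promoter in every replicate with no overlap. E030+ P021+ differed by −2.21 and E030+ P009- by −2.12. The other 3 of the 8 were E015+ P007- at −2.72, the lowest of all (SE 0.50, adjusted p = 0.0496), E103- P009+ at −2.13, the single construct measured for E103, and E104- P013- at −2.06, with Fam32a.

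The other low cCREs were E038 within Hsh2d at −0.68 (SD 0.20, n = 3), E040 within Cib3 at −0.66 (SD 0.24), E094 at −0.66 (SD 0.046) and E092 at −0.61 (SD 0.17), both within Nwd1, E065 within Eps15l1 at −0.49 (SD 0.20), E109 within Sin3b at −0.48 (SD 0.22), and E015 within Zfp961 at −0.46 (SD 0.12). All 7 passed (adjusted p 0.0126 to 0.0282), although E065 and E109 did not with the median over constructs (adjusted p = 0.144 and 0.0693). E094 rests on 5 and E109 on 10 constructs. E092 gave 29 lower calls among 59 constructs, E015 27 among 72, E040 16 among 42 and E038 15 among 30, with no higher call in any of them. E050 near Gm51537, at −0.43, gave the most lower calls, 37 of 86 constructs. Downstream of the reporter E030 had −1.11 (SD 0.11, n = 3), E040 −0.66 (SD 0.071), E092 −0.62 (SD 0.072), E015 −0.49 (SD 0.048) and E038 −0.42 (SD 0.036), whereas E065 had 0.14 (SD 0.032). Their activity alone was low, for example 0.108, 0.0516 and 0.229 for E092- and 0.126, 0.0415 and 0.243 for E065-.

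The Klf2 promoter itself, P016 (72318657 to 72319107), was measured in 60 constructs in plus and 49 in minus orientation. Neither shift passed, at −0.12 for P016+ (−0.21, −0.033 and −0.13 in replicates 1, 2 and 3, adjusted p = 0.133) and 0.19 for P016- (0.063, 0.32 and 0.19, adjusted p = 0.102). With the median over cCREs the shift of P016+ was −0.25 and passed (adjusted p = 0.0479). Of the plus constructs 7 were called higher and 10 lower, and of the minus constructs 5 were called higher and 0 lower. The highest was E007+ P016-, with 1.70, 1.63 and 2.05 against 0.236, 0.142 and 0.375 for the promoter, a difference of 2.94 (SE 0.26, adjusted p = 0.0314). E007+ P016+ reached 8.29, 10.7 and 9.15 against 1.37, 1.20 and 1.49, a difference of 2.79 (SE 0.17, adjusted p = 0.0314), and lay 0.099 below the sum of both fragments alone. E097- P016- and E097- P016+ differed by 2.77 and 2.04, and the latter exceeded the sum by 1.20.

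Among cCREs close to Klf2, E057+ raised the Klf2 promoter in both orientations. E057+ P016- had 1.47, 0.626 and 1.21, a difference of 2.16 (SE 0.23, adjusted p = 0.0329), and E057+ P016+ had 3.09, 2.95 and 3.20, a difference of 1.19 (SE 0.097, adjusted p = 0.0314). E057 lies 7137 bp from P016 as the table gives the distance. E061, near Eps15l1 and 14890 bp from P016, had a difference of 1.25 in E061+ P016+ (SE 0.18, adjusted p = 0.0387). Its other 3 constructs with P016 did not pass, at 0.94 for E061+ P016-, 0.34 for E061- P016- and 0.015 for E061- P016+. E105 within Sin3b, 415823 bp away, gave 1.96 in E105+ P016- and 1.29 in E105+ P016+, and 0.34 in E105- P016-, which did not pass. The 5 lowest called were E050+ P016+ at −1.09, E050- P016+ at −0.95, E095+ P016+ at −0.85, E112- P016+ at −0.84 and E012- P016+ at −0.84. E050+ P016+ had 0.660, 0.465 and 0.817, below P016+ alone in every replicate. E050 lies 33287 bp from P016. E040+ P016+ had a lower mean difference of −1.73 but did not pass (adjusted p = 0.0585), with −2.41, −1.88 and −0.90 in the replicates.

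Plus and minus orientations of a cCRE were compared with the same oriented promoter for 52 cCREs. The difference passed for 10 (20 at an unadjusted p under 0.05), of which 7 were higher in plus, and over all cCREs in the fit 19.1% were called. E097 was higher in plus by 1.06 (1.11, 1.14 and 0.93 in replicates 1, 2 and 3, SE 0.078, adjusted p = 0.0140), in 11 of 12 oriented promoters. Its mean differences from the promoter alone, not centred, were 2.06 in plus and 1.00 in minus. E072 within Gm46043 and Calr3 was higher in plus by 1.06 (SE 0.15, adjusted p = 0.0243), on 4 oriented promoters. E105 was higher in plus by 0.68 (SE 0.073, adjusted p = 0.0145), in 29 of 36 oriented promoters. E007 was higher in plus by 0.47 (SE 0.068, adjusted p = 0.0243), in 10 of 12. Its mean difference from the promoter alone remained above 1 in both orientations, at 2.15 and 1.68. E004, near Zfp709, was higher in minus, with a difference of −0.81 (−0.95, −0.91 and −0.56, SE 0.11, adjusted p = 0.0243) in which plus exceeded minus in 6 of 27 oriented promoters. E003, its neighbour, had −0.66 (SE 0.13, adjusted p = 0.0422) and E018 near Zfp961 −0.37 (SE 0.068, adjusted p = 0.0364). With the median over constructs the values of E004 and E003 were −0.44 (adjusted p = 0.0301) and −0.42 (adjusted p = 0.0804), and E072 did not pass (adjusted p = 0.0539). Without replicate 1 or replicate 2, 0 passed, and without replicate 3, 2 passed, E097 and E072.

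Many promoters alone differed with orientation. Of 23 promoter fragments 13 passed, 11 higher in plus (17 with scaled replicates, 12 of them higher in plus), and over all promoters in the fit 43.2% were called. Fam32a P013 was higher in plus by 3.13 (SE 0.26, adjusted p = 0.00418), Eps15l1 P017 by 2.68 (SE 0.096, adjusted p = 0.000709) and Klf2 P016 by 2.53 (SE 0.25, adjusted p = 0.00428). P003 and P022 were higher by 2.03 and 2.01. Klf2 lies on the plus and Eps15l1 on the minus strand of the genome, and both fragments were higher in the orientation called plus. Cherp P019 (−1.09) and Olfr374 P007 (−1.77) were higher in minus. Med26 P021 (0.22) and Ap1m1 P014 (0.056) did not pass. The response to cCREs was not shown to depend on promoter orientation. The shift differed between orientations in 0 of 22 promoters (9 at an unadjusted p under 0.05; limma), where 0% were called over the fit, and the difference for P016 was −0.30 (SE 0.051, adjusted p = 0.0986). Without replicate 1, 3 promoters passed for activity alone, without replicate 2, 10, and without replicate 3, 13, and for the shift 0, 1 and 0 passed.

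The distance between cCRE and promoter in the genome was also set beside the effect. Distances ran from 416 to 860777 bp, with a median of 265 kb. The 176 constructs of fragments under 20 kb apart had a median effect 0.029 above the mean of their own cCRE, and those over 300 kb apart 0.0072 above. By the mean, these values were 0.11 and −0.015, with SDs over constructs of 0.61 and 0.49. Over all 3685 constructs r between log10 distance and this value was −0.043. Under 20 kb, 11.9% of constructs were called higher and 11.9% lower, and from 20 to 100 kb 3.56% and 16.1%. From 100 to 300 kb the shares were 4.14% and 16.7%, and over 300 kb 6.06% and 14.7%. These bins hold different sets of cCREs, with 41, 70, 80 and 82 in order of distance, and the difference between bins was not tested.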

How the data were processed

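The authors deposited, per construct and biological replicate, a ratio of cDNA to plasmid DNA barcodes, on a linear scale, for the construct and for each fragment alone. Per the labels' protocols, barcodes were linked to fragments by inverse PCR, and plasmid DNA was amplified in technical replicates. Bowtie2 and mm10 are named, per the submitters' processing notes, without a version or role. Barcode filters, averaging and scaling are not given in the sources used here. A further 3 deposited columns of per-replicate ratios in the Downstream table were not used.

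From these ratios, log2 activity of a construct minus log2 activity of its promoter alone was taken within each replicate (n = 3), which is the replicate block, since both values come from the same cDNA sample. No pseudocount was used, since constructs holding a 0 were dropped. Differences were tested against 0 with limma 3.58.1 (lmFit and eBayes) in R 4.3.3, over 3685 Klf2 and 1256 Nanog constructs together, with Benjamini-Hochberg adjustment at 0.05. SEs are limma's moderated ones and SDs are between replicates. Shifts needed at least 10 constructs, cCRE effects at least 3 promoter fragments, orientation at least 3 oriented promoters and promoter classes at least 2 of each. P-values measure the spread between transfections of the same plasmid pool. The test was checked on simulated data.

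All promoters were to be named, with the 8 highest and 8 lowest cCREs and called pairs, the 5 highest and 5 lowest called pairs of P016, and the 3 cCREs with the largest class and orientation differences in each direction. E008, E050, E007 under orientation, E030 under promoter class and the further P016 pairs of E040, E057, E061 and E105 were named after their values were seen. The members and lists were chosen with earlier results of these data known. Alternatives were each replicate left out, no block, a pseudocount of 0.01, a minimum activity of 0.1, scaled replicates, medians, another baseline, class split, variance trend or family, and, chosen after seeing the data, the fit without P012+. Tables were handled in pandas 2.3.3 and numpy 2.4.6 under Python 3.11.15.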

Additional observations from a re-analysis of the deposited data

How the results depend on the processing

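Counts of calls are given for Klf2 items. Pairing rests on the shared cDNA sample, and without the replicate block 438 constructs passed against 765 with it. Construct calls numbered 1211 without activities below 0.1, 258 with scaled replicates, 335 with the median construct as baseline and 1434 with a variance trend, and 0 to 0 with a replicate left out. Leaving out a replicate gave 0 to 18 shifts (main 19), 3 to 32 cCREs (main 35), 0 to 2 cCRE orientations (main 10), 0 to 6 class differences (main 5), 3 to 13 promoter orientations alone (main 13) and 0 to 1 by shift (main 0). Scaled replicates gave 10 shifts, 11 class differences and 2 promoter orientations by shift. Without activities below 0.1 there were 26 shifts (8 higher, against 2 of 19), 22 cCRE orientations, 12 class differences and 1 promoter orientation by shift. Medians over constructs gave 20 cCREs, and a class split at an activity of 1 gave 15. Shifts that changed sign include those of P008+ (0.49), P004- (0.28) and P023- (0.24) without activities below 0.1. With medians, those of P002+ (−0.067) and P002- (−0.049) did so. The minimum of 0.1 also acts on a construct's own mean activity. It removes the lowest constructs, chiefly of weak promoters, and so can raise their shift. Shifts under it therefore cannot be compared directly with the main ones. What else moved the shifts was not tested. All other counts stayed within 1.5 times the main count, including those without P012+ (809 constructs). No depth per construct was at hand, so its limit on precision is unknown.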
